A study of Xenopus laevis with 4 samples.

Results

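The genes described here encode the ligands, receptors, Smad transducers, extracellular regulators and feedback inhibitors of BMP, TGF-beta, nodal, activin and FGF signalling. They were chosen by gene symbol, without the homeolog suffix, from the platform annotation updated through RefSeq gene IDs. The rule took symbols that begin with bmp, tgfb, gdf, smad, fgf, spry or dusp followed by a digit (or r for the bmp and tgfb receptors). It also took those that begin with nodal, acvr or inhb, that are an FGF receptor, or that are nog, chrd, fst, bambi or szl. The rule found 94 of 11303 named genes, read by 121 probe sets, and each gene was represented by its brightest probe set. No probe set with chrd as its one symbol was among them. Of the 94 genes, 66 passed the filter on dim probe sets that left 9380 genes in all, and 55 lay above the highest tag control, a probe set with no target in the frog, on all 4 arrays. This frog is allotetraploid: a suffix of .L or .S tells which of its subgenomes, long or short, a homeolog lies in, and near-identical homeologs can share probes.

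RNA came from epithelial explants of Xenopus laevis, cut as presumptive ectoderm at stage 9 to 10 and read on 1-colour Affymetrix arrays, 2 per group. Embryos of both groups had received synthetic mRNA for ICD at the 2-cell stage, and those of the second group also mRNA for MCI-HGR. ICD is the usual name for the intracellular domain of Notch, which holds Notch signalling on, and MCI-HGR is multicilin, an inducer of multiciliated cells, joined to the part of the glucocorticoid receptor that binds hormone; both readings are background knowledge. Dexamethasone, the hormone that releases the fusion protein, was given to both groups at stage 11.5, and explants were collected 5 h later, near stage 14. The arrays measured injected explants only, and the labels do not say how many embryos went into each or whether replicates were separate clutches. The p-values therefore measure only how these samples vary, which may be technical. The number of arrays limits the precision.

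BMPs and their relatives bind pairs of type I and type II receptor kinases that phosphorylate Smad proteins, which then enter the nucleus with Smad4. In the frog gastrula, BMP signalling directs ectoderm toward epidermis, and secreted antagonists that lower it permit neural fate, while nodal-class ligands induce mesoderm and endoderm. FGFs signal through receptor tyrosine kinases and the MAP kinase cascade, maintain mesoderm, and are held in check by Sproutys and by phosphatases of MAP kinase. The question was how these pathways' genes differ once multicilin is active in ectoderm kept under Notch signalling.

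Signal distributions went with the replicate number, with medians of 45.4 and 44.2 for number 1 and of 37.6 and 37.1 for number 2, and are called array set 1 and array set 2. The multicilin probe set (mcidas.S) read 9.7 with ICD and 384.2 with MCI-HGR in set 1, and 17.1 and 141.5 in set 2, in the direction of the labels, and foxj1.S, of a ciliogenic factor that multicilin induces, was 11.6-fold higher with MCI-HGR. Of 22 epidermal markers, 21 lay above the highest tag control on all arrays, and the keratin gene krt70.S read from 13307.1 to 15724.3. The summed signal of the 22 was 74348 and 77770 on the ICD and MCI-HGR arrays of set 1. On those of set 2 it was 96933 and 96332. Markers of several other cell types parted by array set too. For mesoderm, the summed signal of 23 such genes was 3800 and 2179 on the ICD and MCI-HGR arrays of set 1 and 364 and 388 on those of set 2. Homeologs of tbxt and vegt gave most of the sums of set 1. For 18 neural markers the summed signal was 10464 and 9655 in set 1 and 3882 and 4583 in set 2. For 11 genes listed as markers of secretory cells it was 9929 and 7167 in set 1 and 21779 and 18859 in set 2. Most of that sum came from homeologs of ag1 and agr2, which are cement gland genes too, so it does not give the share of epidermal secretory cells. The T-box gene tbxt.S, which marks mesoderm, read 930.4 and 474.1 in set 1 and 12.0 and 25.8 in set 2. The middle to 3' ratio of the actin control was lower with MCI-HGR in each set, at 0.569 against 0.64 in set 1 and 0.401 against 0.652 in set 2; its part in the results was not tested.

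With MCI-HGR, 6 of the 66 signalling genes fell and 0 rose in the fit blocked by array set. The falls made up 9.09% of the genes, against a background of 3.32%, and the background of rises was 6.72%. The 6 were the FGF feedback inhibitor spry2.S, the ligand genes fgf8.L and bmp4.L, the inhibitory Smad gene smad6.S, and the receptor genes acvr1.L and fgfr1.L. Rose and fell stand below for a pass in that blocked fit, which also gives the SEs. The same backgrounds hold for the counts by role below. Most roles hold few genes, and whether a single call in a role exceeds the background was not tested. None of the 6 had both MCI-HGR arrays below both ICD arrays, since the array sets differed more than the groups did. Without a block, limma called 0 of the 66 genes, as it called 0 of all 9380 (background 0.0% in either direction). Known multicilin targets were among those not called, so the adjusted calls of that fit do not tell changed from unchanged genes here. By unadjusted p, all 14 kept multiciliated markers lay under 0.05 in it, as did 385 of all 9380 genes (limma). Of the 66 signalling genes 0 did, the smallest p being 0.142. The blocked fit has 1 residual degree of freedom, so its SEs rest mostly on a variance prior shared over genes. On simulated data it called more unchanged genes than its threshold implies. Without the intensity trend in limma's variance prior, 0 of the 6 passed, with adjusted p from 0.0608 for spry2.S to 0.389 for acvr1.L; among all genes that fit called 38 higher and 0 lower.

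**Figure D1:**
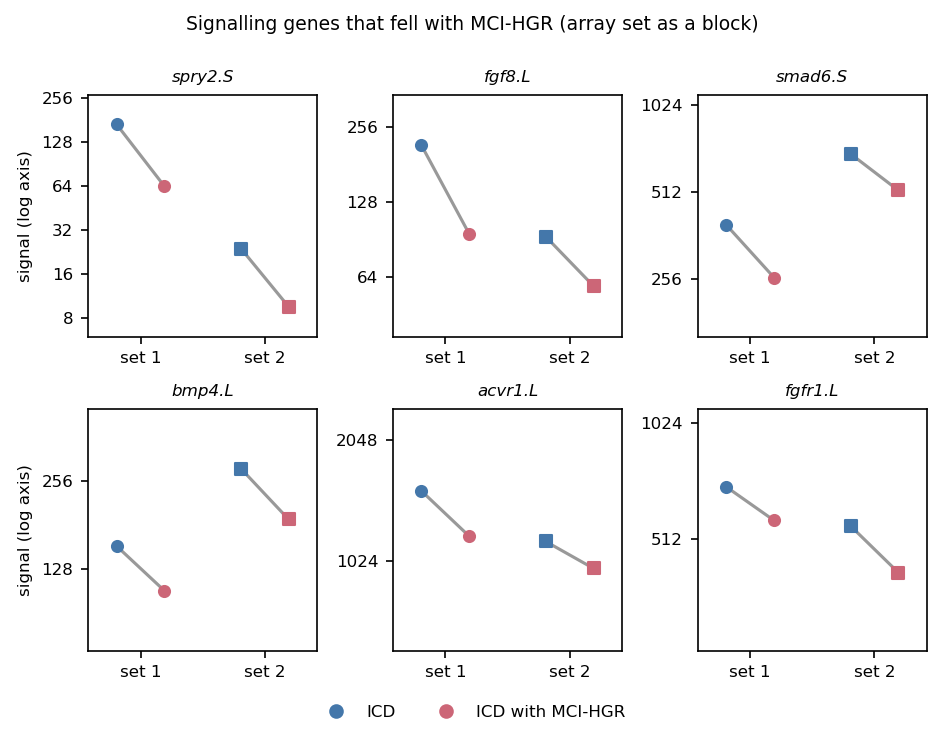
Signal (log axis, arbitrary MAS5 units) of the 6 signalling genes that fell, on each of 4 arrays; grey lines join the ICD and MCI-HGR array of 1 array set (circles set 1, squares set 2). In both sets of every panel the MCI-HGR point lies below the ICD point, and between sets the level shifts, up to 6.91-fold for spry2.S.

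The median log2 difference over the 66 genes was -0.061, against 0.007 over all 9380, and the range ran from -1.37 for spry2.S to 0.45 for fgf2, which was above the highest tag control on 3 of 4 arrays. Within array set 1 the median was -0.076, and within set 2 it was -0.098. Leaving 1 array out of the unblocked fit unbalances the array sets, so the difference between sets enters the value. The median was then -0.003 without the ICD array of set 1 and -0.239 without that of set 2. Without the MCI-HGR array of set 1 it was -0.273, and without that of set 2 it was 0.059. Over all genes kept the same omissions gave 0.063, -0.051, -0.026 and 0.052, in that order. In both array sets 29 of 66 were lower with MCI-HGR (43.9%; background 29.0%), 10 were higher (background 32.7%) and 27 went opposite ways (40.9%; background 38.3%). Both MCI-HGR arrays lay below both ICD arrays for 7 genes (background 9.52%) and above them for 1 gene, the type II receptor gene bmpr2.S (background 12.6%). No gene combined such a separation with a fold of at least 2 (background 3.48%).

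**Figure D2:**
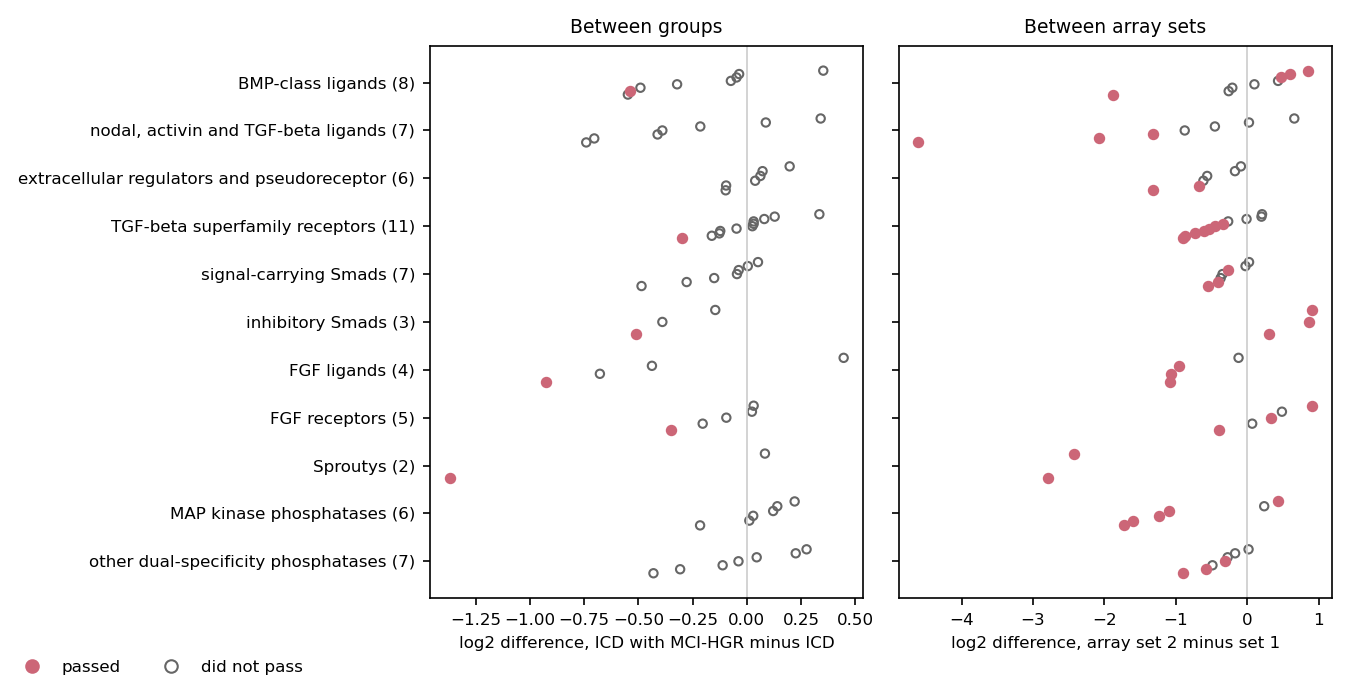
Log2 difference of each of the 66 genes by role, between groups (left, ICD with MCI-HGR minus ICD) and between array sets (right, set 2 minus set 1); filled points passed an adjusted p of 0.05 in the fit with group and array set, and numbers in brackets count genes. The 6 genes that passed on the left are all below 0, and the right axis spans a wider range, down to -4.61 for gdf3.S.

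Among the BMP-class ligands, 8 of 12 genes were kept, 1 fell and 0 rose. The gene bmp4.L, of the ligand that drives epidermal fate in frog ectoderm, read 153.6 and 108.2 on the ICD and MCI-HGR arrays of set 1 and 282.2 and 189.3 on those of set 2 (probe set Xl2.4619.1.S1_x_at). It was lower with MCI-HGR in each set, 1.42-fold in set 1 and 1.49-fold in set 2, while the groups overlapped (log2 difference -0.54 ± 0.14, SE, n = 2 per group; limma, adjusted p = 0.0117 with the block). Its homeolog bmp4.S read 885.7 and 911.8 in set 1 and 1418.1 and 1289.5 in set 2, and did not pass, at a log2 difference of -0.048 ± 0.086. The ending x_at marks probes that can bind other transcripts, so how far the bmp4.L probe set reads bmp4.S is not known here. The related bmp2.S read 37.9 and 23.6 in set 1 and 28.8 and 21.6 in set 2; both MCI-HGR arrays were below both ICD arrays, but the difference did not pass (log2 difference -0.55 ± 0.30; limma, adjusted p = 0.354 with the block). The gene bmp7.1.L read 315.5 and 405 in set 1 and 572.5 and 424.4 in set 2, higher with MCI-HGR in one set and lower in the other. The ligand gene bmp7.2.L read 8091.3 and 7661.2 in set 1 and 8629.5 and 8226.1 in set 2, 1.06-fold and 1.05-fold lower, and did not pass. The genes bmp2.L, bmp3.L and gdf10.L read between 4.4 and 27 on all arrays, and 0 of them passed. The growth factor genes bmp6.S, gdf5.L, gdf6.S and gdf7.S did not exceed the highest tag control on any array.

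Nodal-class and TGF-beta ligands gave 7 kept genes of 13, and 0 passed between the groups. The frog nodal genes form mesoderm and endoderm in the early embryo; nodal.L, nodal3.1.L, nodal3.2.L and nodal6.S were above the highest tag control on 0 of 4 arrays, and no nodal gene read above 15.0, the value of nodal1.L on the ICD array of set 2. The gene gdf3.S, whose RefSeq synonym is derriere and whose product induces posterior mesoderm in frogs, stood apart: it read 467.9 and 182.4 in set 1 and about 12 on both arrays of set 2. It was thus 2.57-fold lower with MCI-HGR in set 1 and level within 1.03-fold in set 2, just above the highest tag controls of 10 and 9.2, and the group difference did not pass (limma, adjusted p = 0.0798 with the block). The TGF-beta ligand gene tgfb2.L read 68.8 and 43 in set 1 and 17.1 and 9.8 in set 2, lower in both, and did not pass (log2 difference -0.74 ± 0.31; limma, adjusted p = 0.154 with the block). The activin and growth factor subunit genes inhbb.L, inhbc.1.L and gdf1.S read between 7.9 and 26.9 and did not pass, and tgfb1.L exceeded the highest tag control on no array. A second kept probe set of tgfb2.L read 38.5 and 38.1 in set 1 and 18.6 and 8.8 in set 2.

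Extracellular regulators did not pass, but sizzled moved in opposite directions in the 2 array sets, as did 38.3% of all genes kept. Sizzled is a secreted inhibitor of the tolloid proteases that cut Chordin, and its gene is itself a target of BMP signalling in the frog. The homeolog szl.L read 556.7 and 1041.1 in set 1 and 929.5 and 549.5 in set 2, 1.87-fold higher and then 1.69-fold lower with MCI-HGR. The homeolog szl.S followed, at 486.7 and 816.8 in set 1 and 349 and 181.5 in set 2, which is 1.68-fold higher and 1.92-fold lower. The pseudoreceptor gene bambi.L, another BMP target, read 1205.3 and 1504.8 in set 1 and 1299.1 and 1096.8 in set 2. All 3 thus had log2 differences near 0 over both sets (0.072 ± 0.18, -0.098 ± 0.20 and 0.038 ± 0.098), each a mean of opposite changes. These SEs rest mostly on the variance prior (26.2 degrees of freedom against 1 residual). They are smaller than the gap between the sets implies, so the values near 0 are not precise. Whether the response differed between sets was not tested, as 1 array per group and set leaves no spread to test it by. The tolloid gene bmp1.L, whose product is a protease and no growth factor, read 81.6 and 87.4 in set 1 and 52.2 and 53.1 in set 2. The antagonist gene nog.L exceeded the highest tag control on no array, and fst.L, of the activin antagonist follistatin, read from 12.3 to 22.6.

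**Figure D3:**
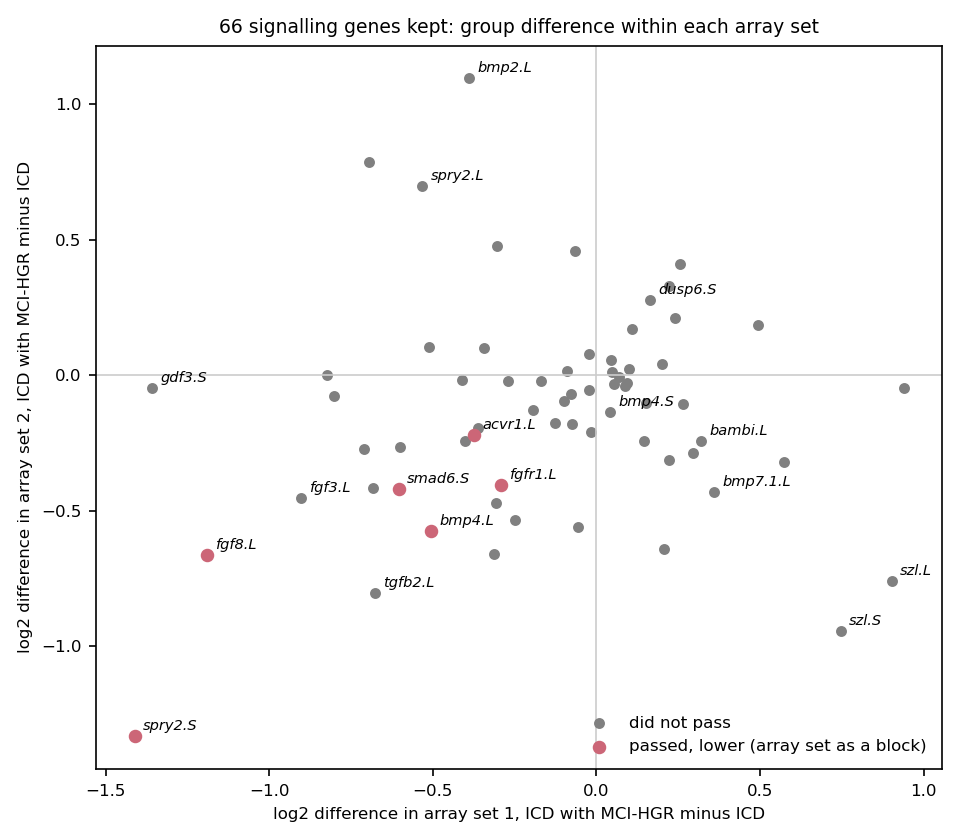
Log2 difference, ICD with MCI-HGR minus ICD, within array set 1 (x axis) and within array set 2 (y axis) for the 66 genes; red points passed in the fit blocked by array set. The 6 red points lie in the lower left, below 0 on both axes, and szl.L and szl.S lie at the lower right, with differences of 0.90 and 0.75 in set 1 and of -0.76 and -0.94 in set 2.

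Of 11 kept genes for receptors of the TGF-beta superfamily, 1 fell (9.09%, background 3.32%) and 0 rose (background 6.72%). All 11 were above the highest tag control on every array. Their log2 differences ran from -0.30 for acvr1.L to 0.33 for bmpr2.S. The type I receptor gene acvr1.L, of a receptor that carries BMP signals, read 1527.7 and 1179.5 in set 1 and 1144.8 and 981.4 in set 2 (probe set Xl2.722.1.S1_a_at), 1.3-fold and 1.17-fold lower (log2 difference -0.30 ± 0.084; limma, adjusted p = 0.0178 with the block, and 0.0725 with each array centred on its median). Its homeolog acvr1.S was lower in both sets too (log2 difference -0.16 ± 0.095) without passing. The main type I BMP receptor gene, bmpr1a.L, read 1635.7 and 1288.2 in set 1 and 765 and 819.3 in set 2, and did not pass. A second kept probe set of bmpr1a.L was lower with MCI-HGR in both sets, at 597.9 and 466.4 in set 1 and 269.2 and 214.4 in set 2. The activin receptor gene acvr2b.S read 439.2 and 528.1 in set 1 and 575.6 and 535.1 in set 2 and did not pass either. The gene of the type II receptor bmpr2.S was the one with both MCI-HGR arrays above both ICD arrays, at 38.4 and 45.9 in set 1 and 36.1 and 48 in set 2.

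Among the Smad genes 1 of 10 kept fell (background 3.32%), an inhibitory one. None of the 7 kept genes of signal-carrying Smads passed: smad1.L, of the Smad that carries BMP signals, read 1214.4 and 1252.7 in set 1 and 906.4 and 942.9 in set 2, a log2 difference of 0.051 ± 0.085. A dimmer probe set of smad1.L gave -0.46, so the mean over both turned the sign, to -0.20. Both homeologs of smad2, of the Smad that carries nodal and activin signals, had both MCI-HGR arrays below both ICD arrays (background 9.52%). The log2 differences were -0.49 ± 0.16 for smad2.S and -0.28 ± 0.14 for smad2.L, and did not pass (limma, adjusted p = 0.0583 and 0.272 with the block). On a second kept probe set of smad2.L the groups overlapped, at 151.1 and 133.5 in set 1 and 42.6 and 38.6 in set 2. Inhibitory Smads block receptor Smads and are induced by the signals they limit. All 3 of their kept genes, smad7.L and both homeologs of smad6, were lower in both array sets (background 29.0%), smad7.L barely so in set 2. The gene smad6.S fell, from 395.2 to 259.9 in set 1 and from 695.4 to 519.9 in set 2 (probe set Xl2.17518.1.A1_at), 1.52-fold and 1.34-fold (log2 difference -0.51 ± 0.11; limma, adjusted p = 0.00129 with the block). The homeolog smad6.L read 201.6 and 162.9 in set 1 and 388.8 and 280.4 in set 2 and lay next to the threshold (log2 difference -0.39 ± 0.13; limma, adjusted p = 0.055 with the block). Of the remaining signal-carrying Smads, smad4.L, of the partner that all of these pathways share, read 386 and 353.4 in set 1 and 267.3 and 236.8 in set 2, and smad3.L was not kept. For smad7.L the log2 difference was -0.15 ± 0.086, at 1.21-fold lower in set 1 and 1.01-fold lower in set 2, and it did not pass.

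FGF ligands were few: 4 of 12 genes were kept, of which fgf8.L fell (25%, background 3.32%). FGF8 signals in early frog mesoderm and at the edge of the neural plate. The gene read 216.9 and 95.1 on the ICD and MCI-HGR arrays of set 1 and 92.8 and 58.6 on those of set 2 (probe set Xl2.32349.1.A1_s_at), 2.28-fold lower in set 1 and 1.58-fold lower in set 2 (log2 difference -0.93 ± 0.18; limma, adjusted p = 0.000499 with the block). The groups overlapped, since the ICD array of set 2 lay below the MCI-HGR array of set 1. A second probe set of fgf8.L was 2.15-fold and 1.66-fold lower in sets 1 and 2, the third 1.01-fold and 1.43-fold lower, and with the mean over its kept probe sets the gene did not pass (adjusted p = 0.145). Levels of fgf3.L, a further FGF ligand gene, were 66.6 and 35.6 in set 1 and 27.1 and 19.8 in set 2, lower in both sets without passing (log2 difference -0.68 ± 0.28; limma, adjusted p = 0.153 with the block). The gene fgf20.L read 75.3 and 43.2 in set 1 and 27.6 and 26.2 in set 2. The ligand genes fgf1.L, fgf4.L and fgf7.L and the intracellular family members fgf12.S and fgf13.L exceeded the highest tag control on no array.

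Of 5 kept FGF receptor genes, fgfr1.L fell (20%, background 3.32%). It went from 699.4 to 571.4 in set 1 and from 552.9 to 417.6 in set 2 (probe set Xl2.2751.1.S1_at). These falls were 1.22-fold and 1.32-fold (log2 difference -0.35 ± 0.10, limma, adjusted p = 0.0225 with the block). The gene fgfr1.L did not pass in limma with each array centred on its median (adjusted p = 0.0754) or with every probe set in the fit (adjusted p = 0.0587). The gene fgfr2.L read 369.7 and 259.5 in set 1 and 558.8 and 600.1 in set 2, with no common direction, and the log2 differences of fgfr4.L and fgfr4.S were 0.023 ± 0.11 and 0.031 ± 0.088.

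Sprouty2, an intracellular inhibitor of receptor tyrosine kinase signalling whose gene FGF induces, had the lowest log2 difference of the 66 genes in one homeolog. The gene spry2.S read 169.9 and 63.9 in set 1 and 23.9 and 9.5 in set 2 (probe set Xl2.11964.1.S2_at), 2.66-fold and 2.52-fold lower with MCI-HGR (log2 difference -1.37 ± 0.26; limma, adjusted p = 0.000277 with the block). The MCI-HGR array of set 2 lay just above the highest tag control of 9.2. The other homeolog, spry2.L, read 80.7 and 55.8 in set 1 and 9.8 and 15.9 in set 2, lower in one set and higher in the other, with a log2 difference of 0.083 ± 0.32. The difference between the homeologs was not tested. The third Sprouty gene, spry1.S, exceeded the highest tag control on no array.

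Of 16 dual-specificity phosphatase genes 13 were kept and 0 passed between the groups. The family holds the MAP kinase phosphatases, of which dusp6 is a widely used FGF readout, and members that act on other substrates. The gene dusp6.S read 281.2 and 315.2 in set 1 and 81.7 and 98.9 in set 2, slightly higher with MCI-HGR in both (log2 difference 0.22 ± 0.15; limma, adjusted p = 0.486 with the block). The homeolog dusp6.L had a log2 difference of 0.14 ± 0.17. The gene dusp1.L, of a phosphatase that glucocorticoids induce in mammals, read 1638.7 and 1699.8 in set 1 and 2281.6 and 2232 in set 2; dexamethasone was given to both groups. Among the other phosphatases dusp11.L, of an RNA phosphatase, had the smallest p, at 239.9 and 280 in set 1 and 155 and 194.5 in set 2 (limma, adjusted p = 0.268 with the block). A second kept probe set of dusp11.L went the other way, at 128.2 and 120.4 in set 1 and 106.2 and 97.5 in set 2.

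Between the array sets the signalling genes differed far more than between the groups. In the fit with group and array set, 29 of 66 genes were lower in set 2 (43.9%; background 28.4%) and 9 were higher (13.6%; background 20.3%), 57.6% in all against 48.7% of all genes. With each array centred on its median the split was 14 lower and 14 higher, a setting for which no share over all genes was counted. Before centring, the median log2 difference between sets was -0.34 for the signalling genes and -0.10 for all genes kept. Of the 4 genes at least 4-fold lower in set 2 (background 0.991%), gdf3.S was 38.4-fold lower among ICD arrays and 15.5-fold lower among MCI-HGR arrays (limma, adjusted p = 2.18e-14). The others were spry2.S (6.91-fold over both groups), spry2.L (5.38-fold as read, with its ICD array of set 2 at 9.8, under the highest tag control of 10) and tgfb2.L (4.2-fold). The FGF readout gene dusp6.S was 3.31-fold lower in set 2 and dusp1.S 3.04-fold lower (limma, adjusted p = 2.16e-10 and 5.9e-10), while dusp1.L was 1.35-fold higher, so the homeologs of dusp1 parted.

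The 9 genes higher in set 2 were those of all 3 kept inhibitory Smads, both homeologs of bmp4, bmp7.1.L, fgfr2.L, fgfr4.S and dusp1.L. The largest set differences upward were of smad6.S (1.88-fold; limma, adjusted p = 1.01e-07) and fgfr2.L (1.87-fold; adjusted p = 8.54e-07), and bmp4.S was 1.5-fold higher (adjusted p = 2.37e-06, limma). Of 11 receptor genes of the TGF-beta superfamily 7 were lower in set 2, among them bmpr1a.L at 1.83-fold, and 0 higher. The backgrounds were 28.4% lower and 20.3% higher. These counts are from signals without median centring, so they hold any shift of whole arrays between the sets. Within homeolog pairs kept on the array, 11 of 15 had the same sign between sets and 10 of 15 the same sign between groups. Some of the latter had differences near 0, as acvr2a (0.031 in both homeologs) and fgfr4 (0.023 and 0.031). No share over all homeolog pairs was counted, and the pairs share probes to an unknown extent.

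**Figure D4:**
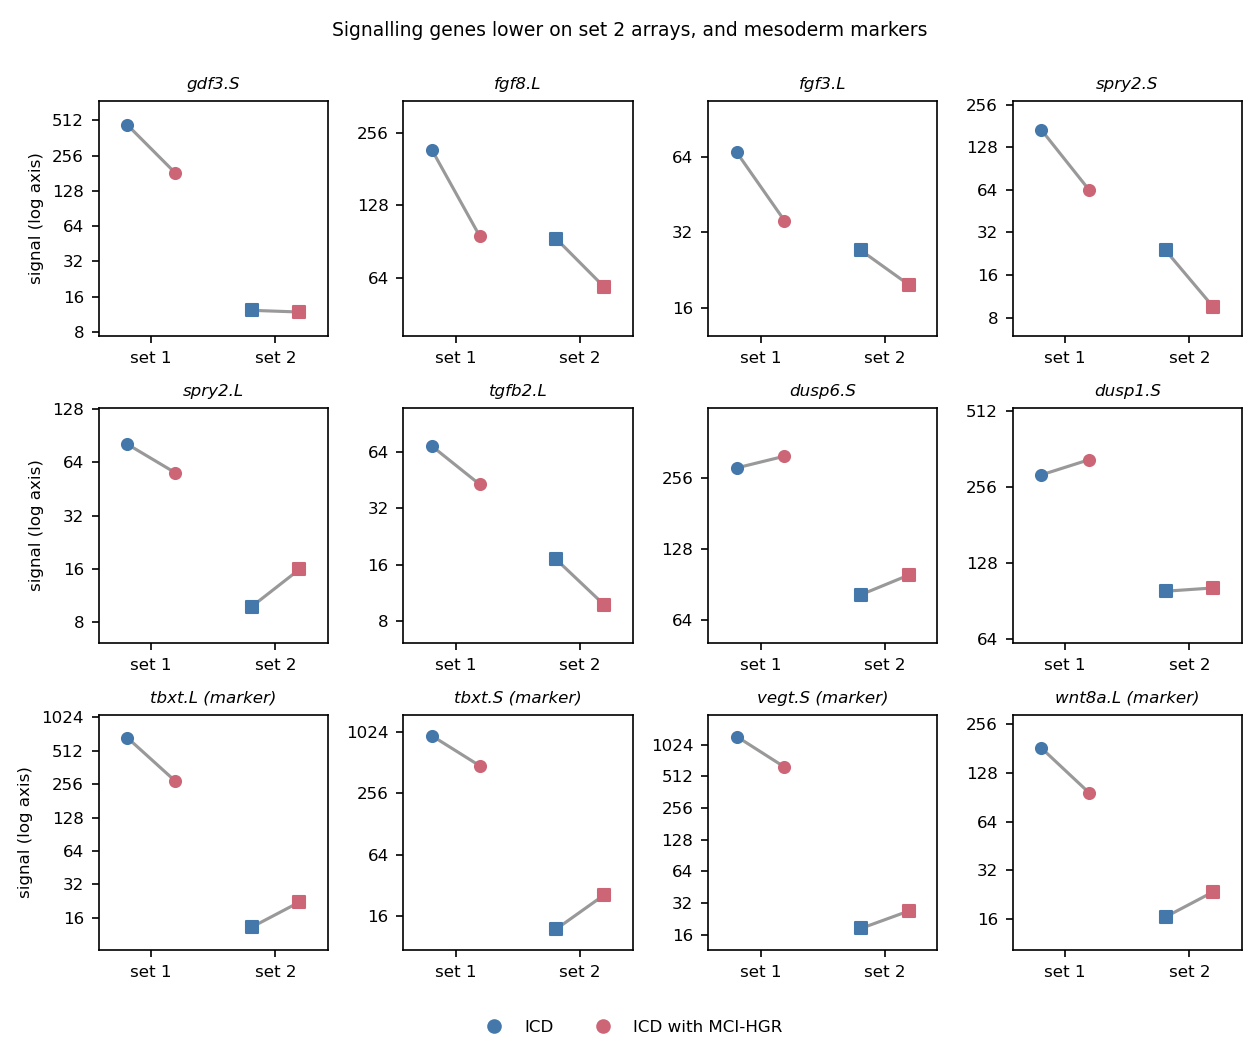
Signal (log axis, arbitrary MAS5 units) on each array of 8 signalling genes lower on set 2 arrays and of 4 mesoderm marker probe sets (bottom row); grey lines join the ICD and MCI-HGR array of 1 set. Marker genes fell from between 182.8 and 1221.2 on the ICD array of set 1 to between 12.0 and 18.4 on that of set 2, and gdf3.S from 467.9 to about 12.

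Markers of several cell types also differed between the sets. Of 14 kept mesoderm markers 8 were lower in set 2 (57.1%) and 0 higher. Of 15 neural markers 10 were lower and 2 higher, and of 10 secretory cell markers 0 were lower and 6 higher. Epidermal markers were mostly higher in set 2, with 2 of 21 kept lower and 13 higher. The background to each count was 28.4% lower and 20.3% higher. The ag1 and agr2 homeologs were among those 6 genes on the secretory list. The 4 mesoderm probe sets plotted, chosen after their values were seen, were lower with MCI-HGR in set 1. There the ICD array exceeded the MCI-HGR array 2.45-fold for tbxt.L, 1.96-fold for tbxt.S, 1.95-fold for the T-box gene vegt.S and 1.89-fold for the ligand gene wnt8a.L, beside the 2.57-fold of gdf3.S, the 2.28-fold of fgf8.L and the 1.87-fold of fgf3.L. In set 2 these 4 markers read at most 26.9 and were higher with MCI-HGR, from 1.43-fold for wnt8a.L to 2.15-fold for tbxt.S. Of the other kept mesoderm markers, vegt.L and myod1.L shared that pattern and the rest did not. Of all 14 kept, 7 went opposite ways in the array sets, the 4 plotted among them. A further 4 were lower with MCI-HGR in both sets, as fgf8.L and spry2.S were, and 3 were higher in both. Between the groups 1 of the 14 rose (background 6.72%) and 1 fell (7.14%, background 3.32%). The organizer gene gsc.S rose, at 23 and 192.7 in set 1 and 8.8 and 38.4 in set 2, and tbx6.L fell. Against the same background, 4 of the 21 kept epidermal markers rose and 3 fell between the groups. Among them grhl3.S was 2.44-fold higher and tp63.S 2.61-fold lower with MCI-HGR. In explants, fewer cells of a type and less RNA per cell cannot be told apart. The part of the epidermal, mesoderm, neural and secretory cell markers in the differences of the signalling genes was not tested.

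Other genes of these pathways, on lists outside the rule, were counted in the same fit. Over all 9380 genes 6.72% rose and 3.32% fell, which is the background to each count here. Of 22 BMP target genes 2 rose and 2 fell with MCI-HGR (9.09% fell). The helix-loop-helix inhibitor genes id4.S and id2.S rose 1.5-fold and 1.34-fold (limma, adjusted p = 7.49e-05 and 0.000222 with the block), with both MCI-HGR arrays above both ICD arrays. The homeobox genes dlx5.L and msx1.L fell 1.40-fold and 1.44-fold; the fall of msx1.L was 1.06-fold in set 1 and 1.96-fold in set 2. The BMP readout genes id3.S and ventx2.1.L, with log2 differences of -0.009 and -0.145, did not pass. Of 16 extracellular modulators of BMP 0 rose and 3 fell (18.8%): the BMP-binding protein gene twsg1.S (1.31-fold), the matricellular gene ccn2.L (1.5-fold) and the follistatin-like gene fstl1.L (1.72-fold).

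Of 20 modulators and targets of TGF-beta and nodal, 1 rose and 4 fell (20%). The one that rose was gsc.S, 6.05-fold by the group means as read; its ICD array of set 2 lay below the highest tag control. The forkhead gene foxh1.L, of a Smad partner in nodal signalling, fell 1.40-fold (limma, adjusted p = 0.00165 with the block), and the Smad corepressor genes ski.S, tgif2.S and tgif2.L fell 1.37-fold, 1.26-fold and 1.4-fold. Of 33 transducers and modulators of FGF signalling 2 rose and 0 fell, flrt2.S, of a membrane protein family of which a member promotes FGF signalling in frogs, by 1.6-fold and the heparan sulfate sulfotransferase gene hs2st1.S by 1.55-fold. Of 17 FGF targets 1 rose and 2 fell (11.8%): the immediate early gene fos.S rose 1.74-fold (limma, adjusted p = 1.29e-05 with the block), and cdx4.L and erf.S fell 1.44-fold and 1.27-fold. Between array sets 13 of those 17 were lower in set 2 (76.5%, background 28.4%) and 1 higher (background 20.3%). Both tbxt and wnt8a are on this list and on the mesoderm list, so the counts of these lists overlap. Signals of cdx4.L were 770.2 and 455 in set 1 and 39.2 and 31.8 in set 2.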

How the data were processed

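For each array the authors deposited linear signal intensities of all probe sets. MAS5 produced them, per the submitters' processing notes; its scaling target was not given in the sources used here. Because MAS5 summarises arrays one by one, differences between whole arrays stay in the values, and dim probe sets are noisy. The 96 control probe sets were left out of the fits, log2 was taken of 32539 signals, and the lowest 25% by mean log2 signal (below about 10.6) were removed. Names came from the platform annotation, with the RefSeq symbol of the gene ID in its place where RefSeq gave a named one. The 11 probe sets that match the rule with several symbols were left out. The level taken as background was an array's brightest tag control among 17, from 9.2 to 13.

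The test between groups was limma's moderated test (version 3.58.1, R 4.3.3), with a trended variance prior. It was two-sided, and p-values were adjusted over 9380 genes by Benjamini-Hochberg. The primary fit had the group alone. The fit with the array set (replicate number) as a block, with 1 residual degree of freedom and a prior of 26.2 degrees of freedom, is printed beside it, because arrays parted by number in their distributions (correlation of same-numbered deviations 0.795 over 9380 genes); the labels do not tie a number to a common clutch or date. A fold is that of group means on the log2 scale. Fits were tested on simulated data, where the unblocked fit recovered no changed gene. The blocked fit recovered nearly all of the larger changes and missed many of the smaller ones, with more false calls than its threshold implies. The smaller ones were log2 changes of 1 or less, a range that holds the signalling genes kept other than spry2.S. The signalling genes, lists and tests were chosen with earlier results of these data known. Named genes were, by rule, those that passed, those with the smallest p between array sets or in a role, and a set of core pathway genes; others named were chosen after their values were seen. Summaries used Python 3.11.15.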

Additional observations from a re-analysis of the deposited data

How the results depend on the processing

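Without a block 0 signalling genes passed in the primary fit or under any alternative run, which says nothing about stability, since the primary fit called no gene at all; with 1 array left out, the lone array of its group was assumed to vary like the other group. By a fold of at least 2 with groups apart the count was also 0, and with the replicate block 6 passed. With the block, 0 genes were higher in the primary setting and 1 with no filter or with 16 added before log2 (dusp14.S, chosen after its values were seen, at 14.8 and 1 on the ICD arrays and 23.9 and 14.6 with MCI-HGR). The count of genes lower, 6, became 0 without the trend and stayed within 1.5 times otherwise, up to 9 with 16 added, where gdf3.S, smad2.S and smad6.L also passed as lower (adjusted p = 0.0127, 0.0498 and 0.0462, limma); the calls of fgf8.L, acvr1.L and fgfr1.L also ended under the alternatives given beside them, and spry2.S was not among the genes kept with the lowest 50% removed. Between array sets the 9 genes higher in set 2 became 14 with median centring and 4 without the trend, and the 29 lower became 14 with median centring and 19 with the lowest 50% removed. The median log2 difference of the signalling genes, -0.061, was -0.084 after quantile normalization, -0.032 with median centring and -0.095 with the mean over probe sets; with 1 array left out it ran from -0.273 to 0.059. Among named genes the sign turned for dusp1.L with the block and quantile normalization (-0.036) and for smad1.L with the block and the mean over probe sets (-0.20); the cause was not tested. With the block, leaving out an array left no residual degree of freedom, so the values within each set stand in its place, an alternative chosen after seeing the data. Signal near the tag controls limits what can be said of nodal ligands, most FGF ligands and nog.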
